A study of Mus musculus with 8 samples.

Results

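Left ventricles of mice with transverse aortic constriction (TAC), an operation that narrows the aorta and makes the ventricle pump against a raised pressure, were compared with left ventricles of sham-operated mice on the same diet. All mice were male C57BL/6N, 8 weeks old at the start, and ate the low fat diet that the labels call SFA; hearts were taken 4 weeks after the operation. The comparison used 4 of the 8 libraries, 2 of sham SFA and 2 of TAC SFA, and 16432 of the 49671 genes in the deposited table, those that reached a value of 1 in 2 or more of the 8 libraries. The other 4 libraries came from sham and TAC mice on SFA-EAA, a diet in which free essential amino acids replaced 93.5% of the casein, and entered only the estimate of spread and the test of the difference between diets. Nothing in the labels ties the 2 libraries of a group to different mice. The p-values below set the difference between group means against only the spread of these libraries within the 4 groups. That spread may therefore be technical.

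A ventricle under pressure load thickens, and its cardiac myocytes return to genes of the fetal heart: natriuretic peptides, slow myosin and skeletal actin. Fibroblasts between the myocytes deposit collagen and the proteins that assemble and crosslink it. Myocytes of the failing heart also lose potassium channel transcripts and enzymes of fatty acid oxidation, the main fuel of the adult heart. The genes are described in that order, by the role of their products.

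Deposited values, a normalized signal per gene, summed to 5739729 and 5956103 in the sham libraries and to 5430107 and 5136441 in the TAC libraries. Genes of the mitochondrial genome held 29.2% and 30.3% of the value in sham and 27.7% and 22.1% in TAC. The 2 sham libraries had a rank correlation of 0.981 across tested genes, the 2 TAC libraries one of 0.978, and pairs across the operation 0.968 to 0.975. The ventricle was recognisable by the adult alpha-myosin gene Myh6, at 105843 and 107780.0 in sham and 80930.4 and 101342 in TAC. Atrial genes, however, stood high in 1 library of each group. Myl7, the atrial light chain, was at 621 and 35.8 in sham and 11.8 and 322 in TAC, and Myl4, the other atrial light chain, at 631 and 53.2 in sham and 27.9 and 629 in TAC. Without the natriuretic gene Nppa, the 20 tested atrial, conduction and epicardial markers summed to 2341 and 710 in sham and to 697 and 2201 in TAC, so sham replicate 1 and TAC replicate 2 carried about equal amounts of them.

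Limma called 137 genes higher and 68 lower in TAC at an adjusted p under 0.05, which is 0.834% and 0.414% of those tested and 1.25% in both directions together. After removal of each library's trend with GC content the calls were 398 higher and 461 lower, a share of 46.3% higher against 66.8%, and all 205 genes were among them. All folds and log2 differences below come from limma's fit to log2(value + 1), so those of weakly expressed genes are understated. By this measure the median was 0.01 over all tested genes, 1.55 for those called higher and -0.99 for those called lower. Of the called genes, 200 were protein coding, 140 changed at least 2-fold, 47 rose at least 4-fold and 11 fell at least 4-fold. Of the 137 higher genes 6 met the filter only through TAC libraries, so they had to differ, and 131 did not. The 2 groups did not overlap in any called gene, but calls were made on these same values, so this is no separate support. Over all tested genes 24.3% had both TAC libraries above both sham libraries and 23.1% had both below. Called higher genes together held 1.32% and 1.29% of the value of nuclear genes in sham and 4.30% and 5.18% in TAC. Called lower genes held 1.35% and 1.33% in sham and 0.809% and 0.735% in TAC. The 10 called genes with the largest rises in value moved from 0.468% and 0.533% to 2.45% and 3.08%.

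The number of calls depended on every library. Omitting sham replicate 2 left 0 calls in limma, with 1278 genes of unadjusted p under 0.05. Omitting TAC replicate 2 left 2 calls, omitting sham replicate 1 left 12 and omitting TAC replicate 1 left 39. The filter over 8 libraries let in 187 genes that are at 0 in all 4 SFA libraries. With only the 11402 genes of mean value 10 or more, the same 4 fits called 31, 37, 60 and 177 genes, and 27 of the 205 genes were called in all 4. Those 27, of which 24 were higher, include Nppa, Nppb, Myh7, Acta1, Ankrd1, Xirp2, Synpo2l, Fhl1, Rcan1, Ctgf, Tgfb2, Edn3, Igfbp7, Tnfrsf12a, Col8a1, Lox, Bgn, Mfap5, Adamtsl2, Cnksr1, Uck2 and Nlrc3 among the higher genes and Kcnj3, Ces1d and Cenpf among the lower. Every call named below that is not among these was lost in at least 1 of the 4 fits, although each called gene kept its direction in every fit in which it was tested. List medians moved too: leaving out 1 SFA library changed the median by over 1.5 times, or its sign, in 42 of 59 lists, and in 12 of the 27 with a median of at least 0.3 in size.

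**Figure D1:**
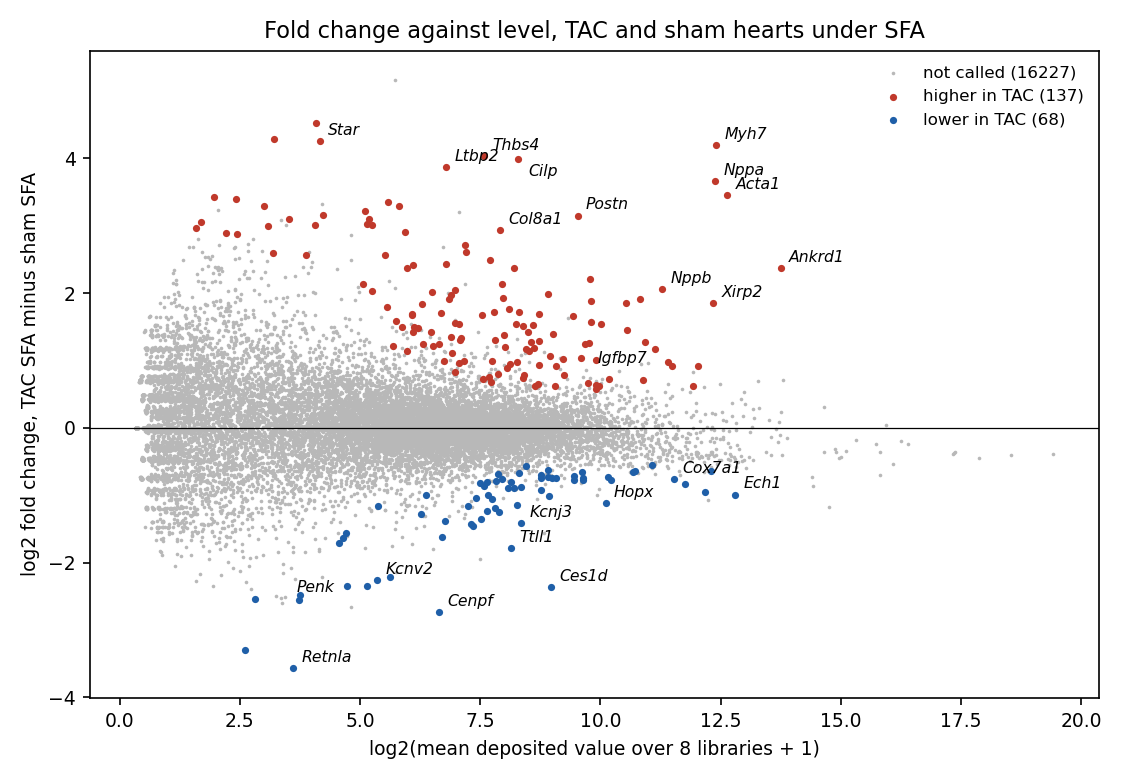
Log2 fold change of TAC against sham under SFA (vertical axis) against the log2 of the mean deposited value over 8 libraries plus 1 (horizontal axis), 1 point per tested gene. The 137 genes called higher are red and the 68 called lower are blue; Myh7, Nppa, Acta1 and Ankrd1 stand at the right, apart from other abundant genes.

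Both cardiac natriuretic peptide genes rose, and they were the only called members of their list. Nppa, the precursor of atrial natriuretic peptide, had values of 1299.5 and 1013 in sham and 10346 and 20406 in TAC, 12.7-fold higher in TAC by limma's fit (adjusted p = 0.00228, SE of the log2 fold change 0.28). Nppb, the precursor of B-type natriuretic peptide, had values of 1022 and 1101 in sham and 4184 and 4697 in TAC, 4.17-fold higher (adjusted p = 0.00228). Per base of gene length, Nppb made up 46.6% and 54.6% of the pair in sham and 30.9% and 20.3% in TAC, so Nppa was the larger of the pair in both TAC libraries. The 2 genes lie 13517 bases apart on chromosome 4, on the same strand. Of the other 12 tested members, among them the receptors, the processing protease and the degrading enzymes of these peptides, limma called none, and the list's median log2 fold change was -0.03. Gm13054, an antisense gene that overlaps Nppa, was listed at 0 in both sham libraries and at 1.87 and 5.78 in TAC without a call (adjusted p = 0.173). How reads of overlapping genes were shared out is not given in the sources used here.

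A myosin and an actin isoform of the fetal heart rose, and the adult isoforms did not pass the test. Myh7, the slow beta-myosin heavy chain, had values of 569.5 and 1143 in sham and 10894 and 20121 in TAC, a log2 difference of 4.20 with an SE of 0.44 (adjusted p = 0.00438). The skeletal actin gene Acta1 had values of 1220.0 and 2106 in sham and 20280.1 and 15142 in TAC (10.9-fold, adjusted p = 0.00556). Both TAC libraries were far above both sham libraries for each gene. On a per-length scale Myh7 made up 0.396% and 0.778% of Myh6 and Myh7 together in sham and 9.05% and 12.8% in TAC. Acta1 made up 1.79% and 3.35% of Acta1 and cardiac actin, Actc1, in sham and 24.8% and 17.7% in TAC. The other 11 tested fetal and stress isoforms included 0 called genes, and the median of all 13 was 0.28. That median was 0.90 without TAC replicate 1, 0.67 without sham replicate 1 and 0.51 without sham replicate 2. Limma called none of 23 adult sarcomere genes (median 0.01, positive in 12), with 4 at an unadjusted p under 0.05. The median was 0.11 after quantile normalization. Among them Tnni3, the adult cardiac troponin I, was at 26997 and 27819 in sham and 17532 and 15668 in TAC (adjusted p = 0.235).

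The upstream sequences of 3 strongly raised muscle genes, Acta1, Ankrd1 and Xirp2, are shown because, of 9 raised genes whose windows were searched for 4 muscle and load-response motifs, these 3 held the most matches, 2 each. The choice was thus made on the matches: no match was found in the windows of Nppa, Col8a1 and Postn or in 1 of 2 windows of Myh7, and 1 match in each window of Nppb and Synpo2l and in the other window of Myh7. Each run is the 250 bases before the RefSeq start of transcription on GRCm38.p6, 5′ to 3′ on the gene's own strand: chr8:123894776-123895025 on the minus strand for Acta1, chr19:36119845-36120094 on the minus strand for Ankrd1 and chr2:67445752-67446001 on the plus strand for Xirp2. Capitals mark matches, on either strand, to the M-CAT element (CATTCC), the AP-1 site (TGANTCA), the CArG box that serum response factor binds and the MEF2 box.
Acta1: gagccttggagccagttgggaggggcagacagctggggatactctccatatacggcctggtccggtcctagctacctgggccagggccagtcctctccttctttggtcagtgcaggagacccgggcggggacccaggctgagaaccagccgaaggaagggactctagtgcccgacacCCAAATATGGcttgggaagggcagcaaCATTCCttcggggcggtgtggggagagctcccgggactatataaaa
Ankrd1: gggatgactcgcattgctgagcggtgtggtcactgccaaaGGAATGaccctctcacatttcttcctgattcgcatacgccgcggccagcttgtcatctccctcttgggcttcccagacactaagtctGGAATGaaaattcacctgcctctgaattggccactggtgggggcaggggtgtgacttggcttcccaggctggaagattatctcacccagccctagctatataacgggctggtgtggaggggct
Xirp2: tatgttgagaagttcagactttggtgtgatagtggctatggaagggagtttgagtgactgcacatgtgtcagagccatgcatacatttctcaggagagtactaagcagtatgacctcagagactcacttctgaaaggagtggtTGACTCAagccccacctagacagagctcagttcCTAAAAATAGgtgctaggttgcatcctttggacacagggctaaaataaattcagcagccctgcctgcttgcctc
Acta1 held 1 CArG box, 73 to 64 bases before the start, and 1 M-CAT element 46 to 41 bases before it. Ankrd1 held 2 M-CAT elements, and Xirp2 held 1 AP-1 site and 1 MEF2 box. Of 32851 upstream windows of this length in the RefSeq table, 12.6% held an M-CAT element, 6.75% an AP-1 site, 1.47% a CArG box and 1.69% a MEF2 box. Windows were found for 100 of the 137 called higher genes and for 52 of the 68 called lower genes. Among the 125 windows of the called higher genes the shares were 16.8%, 7.2%, 3.2% and 3.2%, and among the 66 windows of the called lower genes 12.1%, 1.52%, 3.03% and 6.06%. A match describes the letters of the window and says nothing of a bound factor.

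Genes of the Z-disc and the intercalated disc, the structures that carry force between sarcomeres and between myocytes, were called in one direction. Of 34 tested members 6 rose (17.6% against 0.834% of all tested genes) and 0 fell. A positive log2 fold change was found in 31, and the median was 0.46. Both TAC libraries lay above both sham libraries in 25 (against 24.3% of all tested genes). Ankrd1, a stretch-responsive repeat protein that binds titin (ENSMUSG00000024803, chromosome 19, 36111965 to 36119844, minus strand), had values of 4776 and 6539.9 in sham and 25397 and 33082 in TAC (5.19-fold, SE of the log2 fold change 0.27, adjusted p = 0.00584). Its rise of 23582 was the largest of any called gene in deposited value. Xirp2, a Xin repeat protein at the intercalated disc that binds actin, was at 2419.7 and 2729.7 in sham and 8957 and 9597 in TAC, and Synpo2l, a Z-disc protein, at 811 and 875 in sham and 2719 and 3434 in TAC. Fhl1, a LIM protein that senses strain at titin, was at 590.0 and 644 in sham and 1733 and 1847 in TAC. Enah, a regulator of actin assembly at cell contacts, and Nrap, an actin anchor of growing myofibrils, rose 2.40-fold and 1.90-fold. Adjusted p-values of Xirp2, Synpo2l, Fhl1, Enah and Nrap lay between 0.00342 and 0.0222.

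Further cytoskeletal genes outside that list were called. Abra, a muscle protein that binds actin and promotes signalling to serum response factor, was at 221 and 218 in sham and 577 and 608 in TAC (adjusted p = 0.0113). Sorbs2, an adaptor of the Z-disc, and Mical2, which oxidises actin, rose 1.90-fold and 1.90-fold. Synpo and Dbn1, which bind actin filaments, rose 1.72-fold and 3.47-fold, and Myl12a, a regulatory light chain of nonmuscle myosin, 1.54-fold. On the microtubule side Clip1, a plus-end tracking protein, and Dync1li1, a light intermediate chain of dynein, rose 1.65-fold and 1.66-fold. The tubulins split. Tubb2a was at 179.8 and 179 in sham and 307 and 286 in TAC and rose, while Tuba4a was at 4589 and 4628 in sham and 2877 and 2314 in TAC and fell. Ttll1, an enzyme that adds glutamate chains to tubulin, fell from 374 and 373 to 97.6 and 118.0 (adjusted p = 0.00568).

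**Figure D2:**
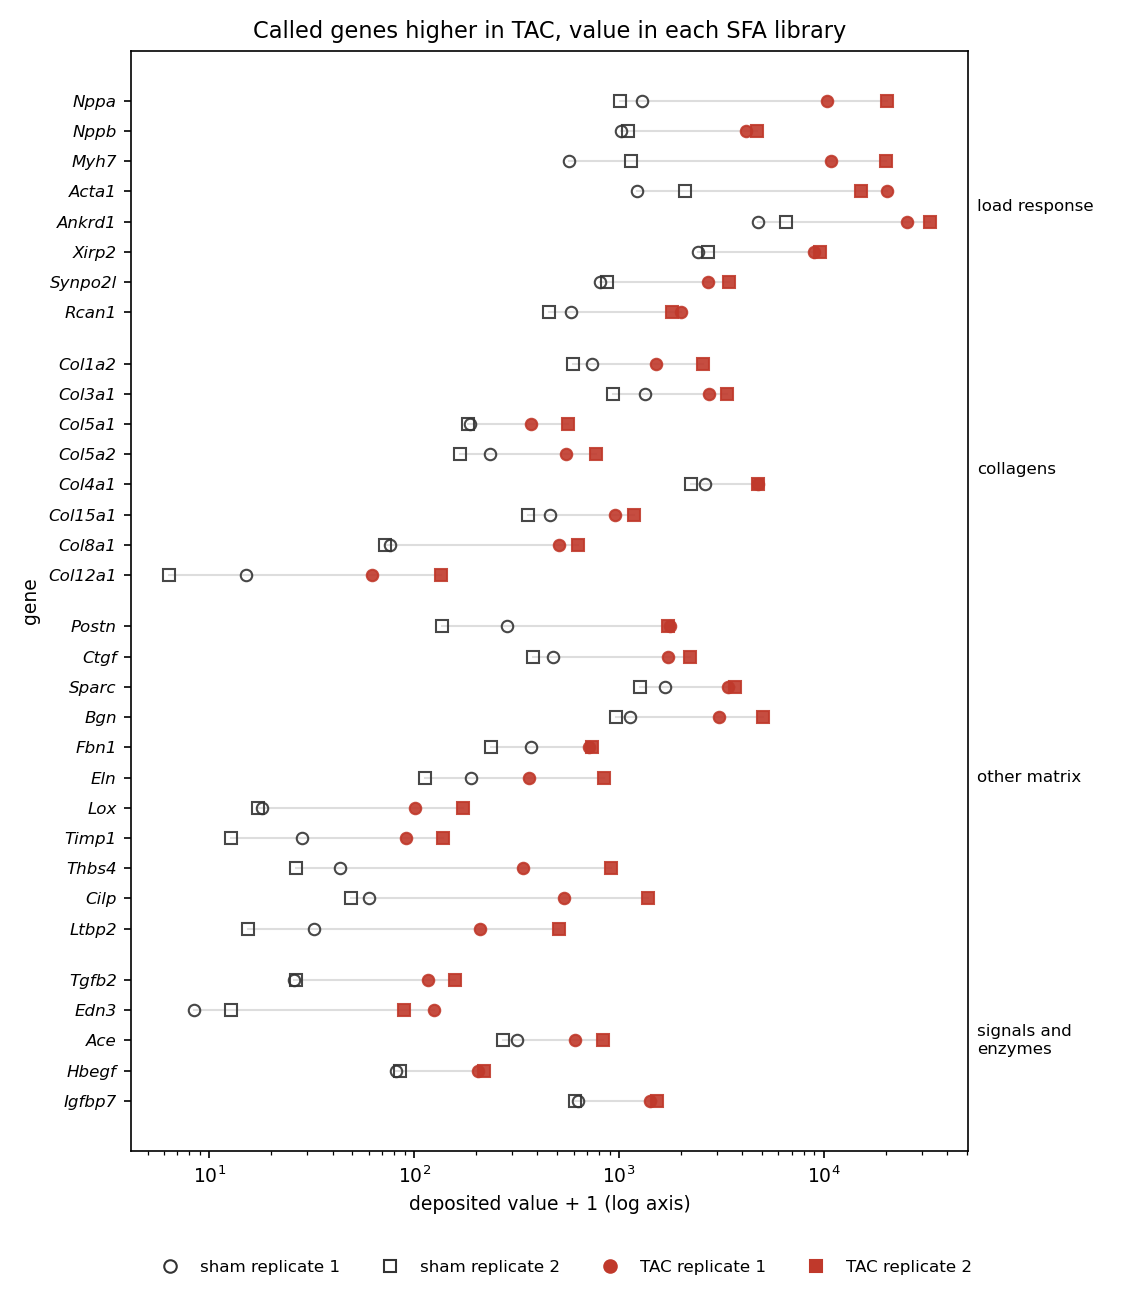
Deposited value plus 1 in each SFA library (horizontal log axis) for 32 genes called higher in TAC (vertical axis), grouped as load response, collagens, other matrix genes, and signals and enzymes. Open symbols are sham and red symbols TAC, circles replicate 1 and squares replicate 2; the groups do not overlap in any of these genes, and for most matrix genes the TAC square lies right of the TAC circle.

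Signalling genes that answer calcium, stretch and peptide hormones had calls in both directions. With the growth factors below, 8 of 223 tested signalling genes rose and 2 fell. These are 3.59% and 0.897%, against 0.834% and 0.414% of all tested genes. Rcan1, a calcineurin inhibitor whose own transcription calcineurin drives, was at 584 and 453 in sham and 1996 and 1805 in TAC (3.69-fold, adjusted p = 0.00438), and it was the only called gene of 23 in the calcineurin, NFAT and MEF2 list (median 0.00, and -0.04 after quantile normalization). In the renin-angiotensin system Ace, the converting enzyme, rose from 317 and 271 to 607 and 832, and Agtr1a, the receptor for its product, fell from 239.7 and 212 to 135 and 123. Edn3, which encodes endothelin 3, rose from 7.40 and 11.8 to 123 and 88.7, and Penk, the precursor of enkephalins, fell from 51.2 and 50.7 to 7.58 and 11.3. None of 33 genes of the adrenergic and cyclic AMP list was called by limma (median -0.10), and none of 38 WNT genes (median 0.10, or -0.28 without TAC replicate 2). At an unadjusted p under 0.05 these lists had 9 and 5 genes.

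Growth factor genes that rose were mostly secreted or bound to the cell surface. Tgfb2, a transforming growth factor, was at 24.9 and 25.7 in sham and 116 and 157 in TAC (5.18-fold, adjusted p = 0.00363). Of 39 tested genes of TGF-beta, activin and BMP signalling, Tgfb2 and Fstl1, a secreted follistatin-like protein, rose and 0 fell, with 34 positive and a median of 0.48. Without TAC replicate 2 that median was 0.06, and without sham replicate 2 it was 0.31. Gdf15, a stress-induced hormone of the same family, was at 5.89 and 3.53 in sham and 52.1 and 58.4 in TAC but did not pass (adjusted p = 0.11), and nor did the activin antagonist Fstl3, at 14.5 and 15.6 in sham and 58.8 and 77.2 in TAC (adjusted p = 0.0512). Among 61 growth factor genes 3 rose and 0 fell (median 0.23): Tnfrsf12a, the receptor of the cytokine TWEAK, from 240.5 and 241 to 746 and 816, Hbegf, an EGF-like ligand, from 80.9 and 84.4 to 205 and 218, and Igfbp7, a secreted IGF-binding protein, from 632 and 606 to 1417 and 1524. The SE of the log2 fold change of Igfbp7, 0.10, was well below the median of 0.30 over all tested genes.

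Extracellular matrix genes made up the largest called group. Of 193 tested genes in 9 matrix lists, 35 rose and 0 fell, or 18.1% against 0.834% of all tested genes, with 166 positive and a median of 0.71 on the log2 scale. These lists were chosen with earlier results of the same data known, so their direction is not independent evidence. In whole tissue, more fibroblasts and more transcript per fibroblast cannot be told apart. Matrix genes held 1.30% and 1.15% of nuclear value in sham and 1.96% and 2.57% in TAC.

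Collagen chains of several families rose. Of 30 tested chains 10 rose (33.3% against 0.834% of all tested genes), 29 were positive and the median was 1.26. Both TAC libraries lay above both sham libraries in 24 (80% against 24.3%). Among the 9 fibrillar chains, Col3a1 was at 1345 and 929.8 in sham and 2762 and 3368 in TAC, Col1a2 at 735 and 599 in sham and 1519 and 2579.9 in TAC, Col5a2 at 234 and 167 in sham and 550.2 and 773 in TAC and Col5a1 at 186 and 182 in sham and 371 and 562 in TAC (log2 fold changes 1.45, 1.58, 1.72 and 1.31). Col1a1, the partner of Col1a2 in type I collagen, was at 537 and 458 in sham and 1070.0 and 2190.2 in TAC and did not pass (adjusted p = 0.0937). The neighbouring genes Col3a1 and Col5a2 lie 24615 bases apart on chromosome 1. In basement membranes Col4a1 and Col15a1 rose 1.96-fold and 2.62-fold. Col8a1, a short-chain collagen, was at 75.2 and 71.2 in sham and 511 and 630.2 in TAC, and its SE of 0.19 beside a log2 fold change of 2.94 gave it the smallest adjusted p of the comparison (0.00164). Of the fibril-associated chains Col12a1 rose from 14.1 and 5.39 to 61.5 and 134 and Col14a1 from 88.7 and 75.1 to 191 and 306. Col9a2 was listed at 0 in both sham libraries and at 10.4 and 9.10 in TAC. It met the filter only through TAC libraries, so its call is no support, and without it 9 chains and 34 matrix genes rose.

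Matricellular proteins tune how cells hold the matrix. Of 29 tested, 6 rose, 0 fell, and the median was 1.02 (0.61 without TAC replicate 2). Thbs4, a thrombospondin, was at 42.6 and 25.5 in sham and 339 and 913 in TAC, and Cilp, a cartilage-type matrix protein, at 59.3 and 48.4 in sham and 537 and 1389.7 in TAC; in both, TAC replicate 2 was more than double TAC replicate 1. Postn, periostin, was at 284 and 136 in sham and 1777 and 1727 in TAC, nearly the same in both TAC libraries. Ctgf was at 477 and 378 in sham and 1725 and 2225 in TAC, its relative Cyr61 at 189.8 and 259 in sham and 427 and 399.8 in TAC and Sparc, a collagen-binding glycoprotein, at 1673 and 1273 in sham and 3411 and 3691 in TAC. Osteopontin, Spp1, at 2.56 and 2.74 in sham and 16.0 and 50.4 in TAC, and tenascin, Tnc, at 6.92 and 2.64 in sham and 22.7 and 44.3 in TAC, did not pass (adjusted p = 0.0621 and 0.0601). Bgn, biglycan, was the only called gene of 13 small leucine-rich proteoglycans, at 1135 and 971 in sham and 3064 and 5062 in TAC, and the median of that list was 0.98 (0.15 without TAC replicate 2 and 0.47 without sham replicate 2).

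The elastic fibre list had 7 of 20 genes called, all higher, with a median of 0.92 (0.60 without TAC replicate 2). Its core proteins elastin and fibrillin 1 moved from 189 and 111 to 362 and 846 for Eln and from 369.8 and 236 to 713 and 737 for Fbn1. Around them, Ltbp2, a microfibril protein, moved from 31.5 and 14.5 to 209 and 509.7, and the microfibril-associated Mfap5 and Mfap4 rose 5.62-fold and 6.08-fold. Adamtsl2, a fibrillin-binding protein that restrains TGF-beta, rose 6.55-fold and Fbln2, fibulin 2, 2.09-fold. Among 30 genes that process and crosslink collagen 4 rose. Lox, the lysyl oxidase that starts the crosslinks, was at 17.0 and 16.4 in sham and 101 and 172 in TAC (7.48-fold, adjusted p = 0.00438), and Loxl2, Adamts2, which trims procollagen, and Pcolce, an enhancer of that trimming, rose 3.25-fold, 2.92-fold and 1.97-fold.

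Proteases and their inhibitors were called together. Timp1, an inhibitor of matrix metalloproteases, was at 27.3 and 11.8 in sham and 90.1 and 137 in TAC, while the gelatinase Mmp2 was at 264 and 191 in sham and 479 and 855 in TAC. In that list 5 of 36 were called (median 0.56, or 0.36 without sham replicate 2), among them Serpinf1 and Adamts10, at 3.29-fold and 2.32-fold. The integrin subunits Itga5, of the fibronectin receptor, and Itga9 rose 1.72-fold and 2.28-fold. Outside the lists Tgm2, the crosslinking transglutaminase, Mrc2, an endocytic collagen receptor, Sulf1, a sulfatase of heparan sulfate chains, and Svep1, a large adhesion protein, rose 1.64-fold, 2.53-fold, 2.46-fold and 4.13-fold.

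Markers of activated fibroblasts had the highest median of 59 lists, 2.42 (1.41 without TAC replicate 2). Limma called 8 of 23 higher (34.8% against 0.834% of all tested genes), and all 23 were positive (against 8400 of 16432). Both TAC libraries lay above both sham libraries in 18 and below in 0 (against 24.3% and 23.1% of all tested genes). Resident fibroblast markers had a median of 0.30 (0.58 without TAC replicate 1 and 0.16 without sham replicate 2), with 4 of 22 higher (18.2%) and 16 positive. Both TAC libraries lay above sham in 11 of them and below in 3 (against 24.3% and 23.1% of all tested genes). In the latter list 3 of the 4 called genes, Col1a2, Col3a1 and Mfap5, encode matrix proteins and the last is Pi16, a peptidase inhibitor. The activated list shares Postn, Cilp, Thbs4, Ltbp2, Lox, Timp1 and Mfap4 with the matrix lists and adds Meox1, a homeobox factor of activated fibroblasts, at 63.0 and 31.7 in sham and 194 and 308 in TAC.

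**Figure D3:**
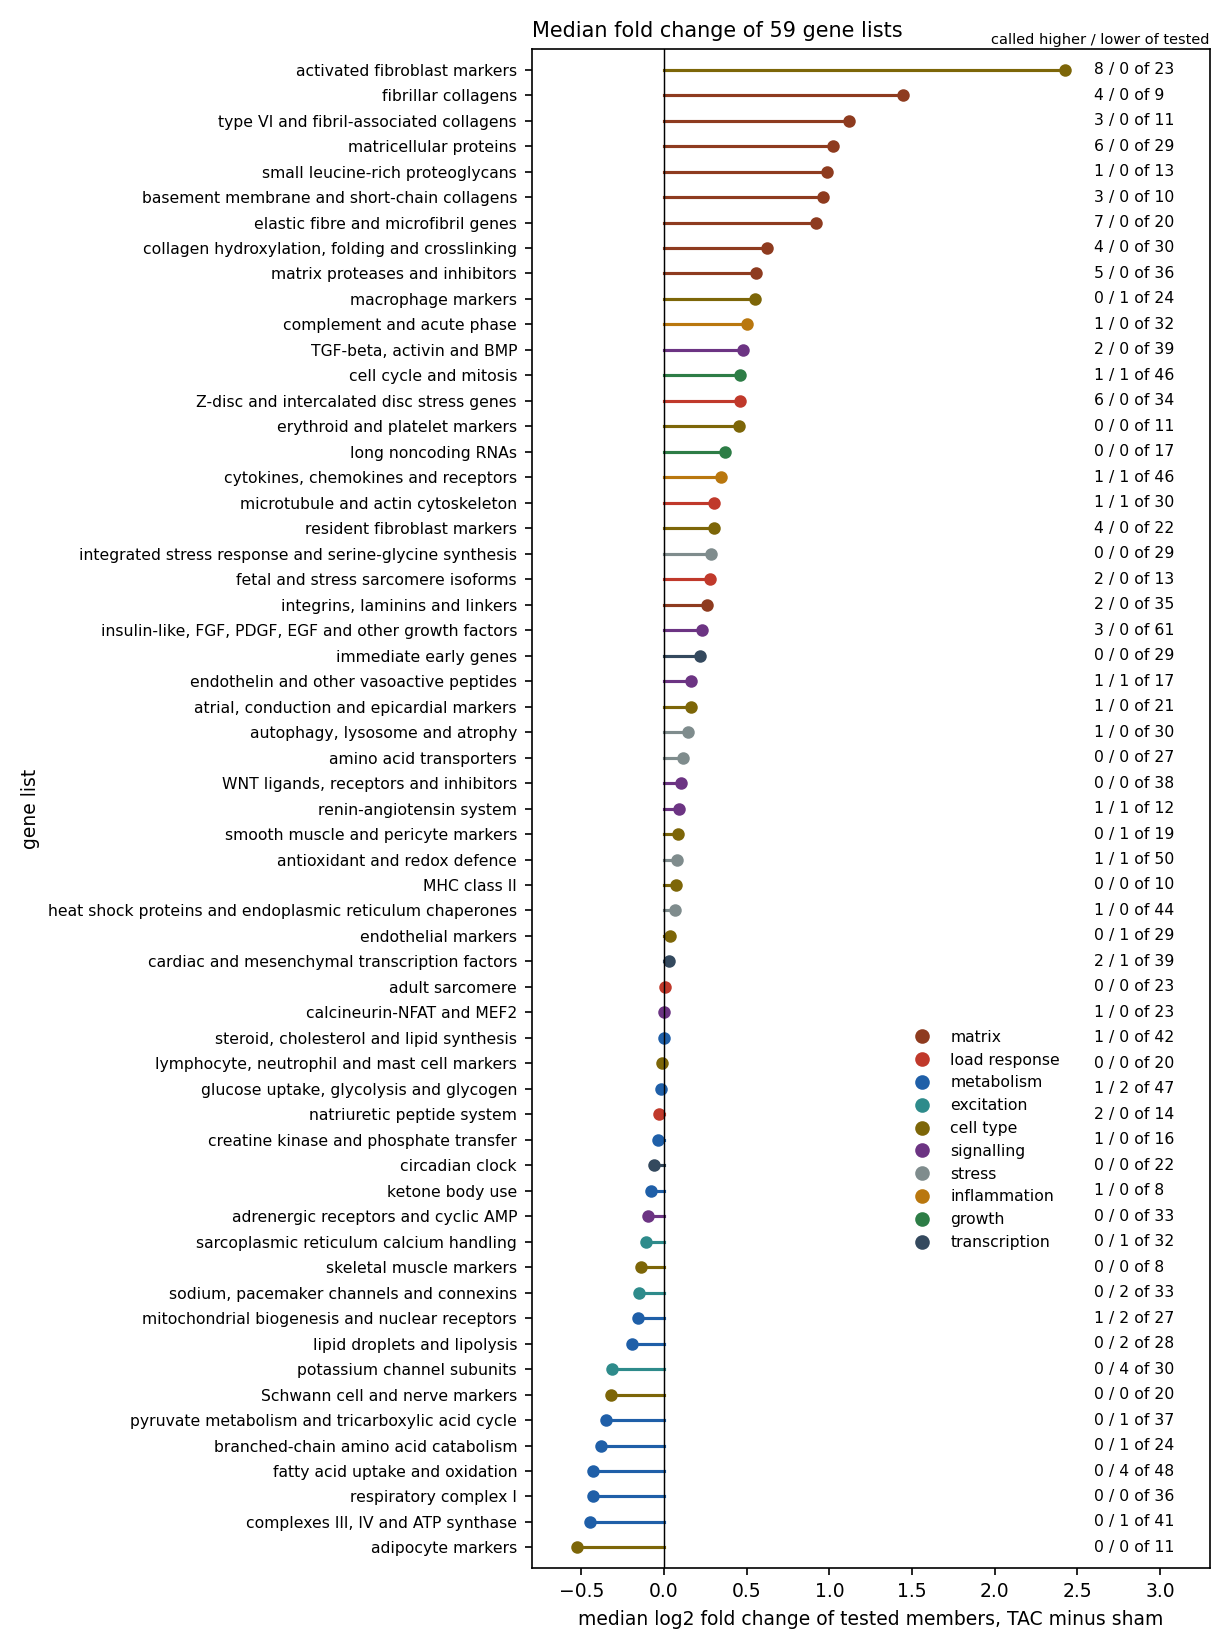
Median log2 fold change of the tested members of 59 gene lists (horizontal axis, 1 list per line), coloured by role, with the number of members called higher and lower at the right. The activated fibroblast list and 8 of the 9 matrix lists stand at the top, and respiratory, fatty acid and amino acid catabolism lists near the bottom.

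The size of the matrix rise differed between the 2 TAC libraries. TAC replicate 2 exceeded TAC replicate 1 in 157 of the 193 matrix genes, and sham replicate 1 exceeded sham replicate 2 in 145. Over all 16432 tested genes these counts were 8317 and 8057. In the elastic fibre list TAC replicate 2 was higher in 20 of 20 genes, by a median log2 difference of 0.80, and in the fibrillar collagens in 9 of 9, by 0.76. These libraries, TAC replicate 2 and sham replicate 1, are the ones with the high atrial markers. Further members of that marker list stood high in the same pair: Dkk3, a secreted WNT modulator, was at 176 and 27.8 in sham and 50.8 and 376 in TAC, the mesothelial marker Msln at 5.29 and 0 in sham and 2.66 and 37.2 in TAC, Upk3b, another surface marker of mesothelium, at 9.83 and 0.807 in sham and 2.67 and 35.6 in TAC. Comp, a cartilage matrix protein and itself a matrix list member, was at 50.9 and 21.9 in sham and 127 and 782 in TAC. The part of these libraries' atrial and epicardial markers in the matrix result was not tested. Between the 2 libraries without high atrial markers, sham replicate 2 and TAC replicate 1, Postn differed as 136 against 1777, Col8a1 as 71.2 against 511 and Lox as 16.4 against 101. In that pair the summed value of the 30 collagen chains was 8034 against 18286.5. Postn, Col8a1 and Lox were picked from the called genes, and the pair has no replicate in either group. It is therefore no test of the part of the atrial and epicardial markers.

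**Figure D4:**
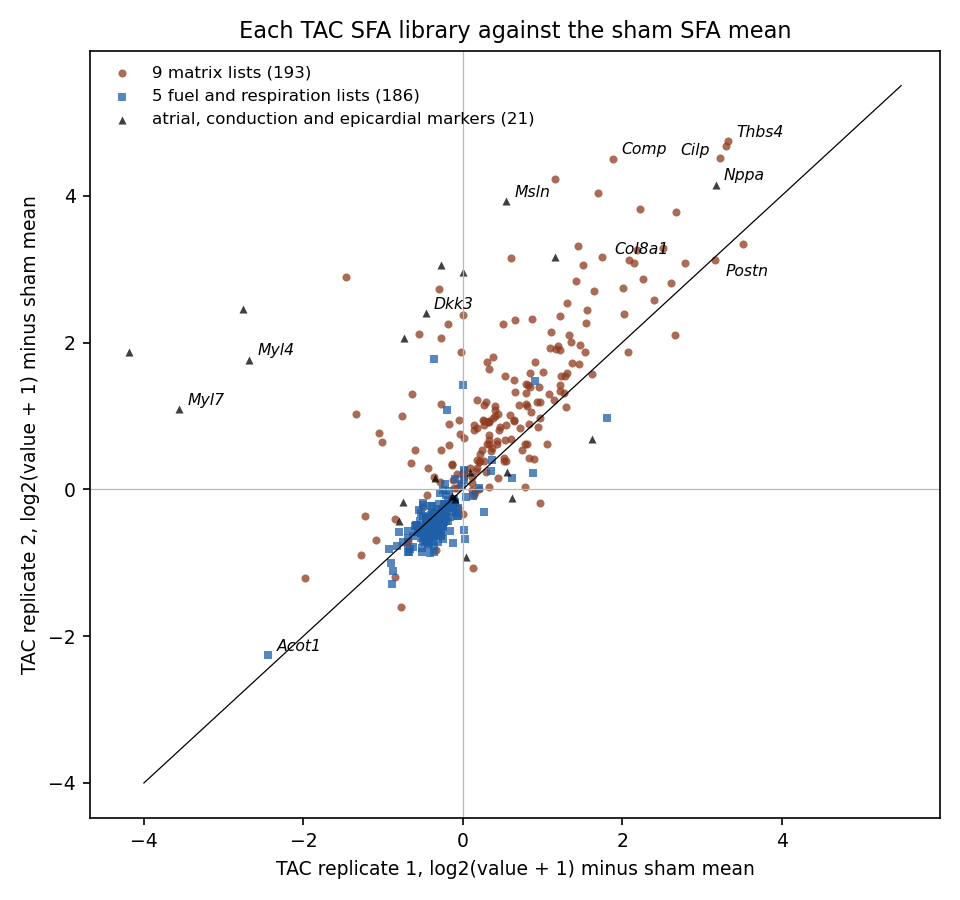
Log2(value + 1) minus the sham SFA mean in TAC replicate 1 (horizontal axis) and TAC replicate 2 (vertical axis), 1 point per gene; the line marks equal values. Most of the 193 matrix genes (brown) lie above the line, most of the 186 genes of 5 fuel and respiration lists (blue) lie close together below 0 on both axes, and atrial genes (black) such as Myl7 and Myl4 fall left of 0 and above it.

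Called genes of excitation were all lower. Of 95 tested, 7 fell (7.37% against 0.414% of all tested genes) and 0 rose, and 33 were positive. Both TAC libraries lay below sham in 41 (43.2% against 23.1%) and above in 16 (16.8% against 24.3%). The potassium channel list alone had 4 of 30 lower, with 8 positive and a median of -0.31 (-0.15 without TAC replicate 1). Kcnj3, a subunit of the channel that acetylcholine opens, was at 418 and 385 in sham and 160.4 and 139 in TAC, a log2 difference of -1.42 with an SE of 0.15 (adjusted p = 0.00438). Kcnv2, a silent modifier subunit, was at 43.8 and 44.0 in sham and 9.44 and 7.45 in TAC, and Kcnip2, the partner of the transient outward channel, at 951 and 1027 in sham and 595 and 589.7 in TAC. Kcnd2, a pore subunit of that outward channel, was at 67.8 and 101 in sham and 33.2 and 26.1 in TAC and just missed the threshold (adjusted p = 0.052). Abcc9, the sulfonylurea receptor of the ATP-sensitive channel, was at 1746 and 1848 in sham and 1139 and 1159 in TAC. It is also a marker of pericytes and smooth muscle, a list in which it was the only called gene of 19 (median 0.09).

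Other excitation genes fell as well. Clcn1, the muscle chloride channel, was at 34.7 and 34.1 in sham and 11.4 and 8.43 in TAC, and Scn10a, a sodium channel best known from sensory neurons, at 20.9 and 15.6 in sham and 3.82 and 1.43 in TAC (adjusted p = 0.0433 and 0.0409). The beta subunit gene Scn4b, at 194 and 172 in sham and 101 and 50.7 in TAC, and Gja1, the main ventricular connexin, at 2327 and 2663 in sham and 1578 and 1907 in TAC, did not pass (adjusted p = 0.106 and 0.109). Hrc, which buffers calcium in the sarcoplasmic reticulum, was at 5971 and 5777 in sham and 3754 and 3801 in TAC and was the only called gene of 32 that handle calcium there (median -0.11). Dhrs7c, a dehydrogenase of the same membrane, fell from 626 and 634 to 401 and 351. The calcium pump gene Atp2a2 and its inhibitor Pln were at 81151 and 75722 in sham and 56123 and 52431 in TAC and at 31026 and 32382 in sham and 24092 and 22839 in TAC, below sham in both TAC libraries without a call (adjusted p = 0.255 and 0.297).

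Most fatty acid genes had lower values in TAC, and the number that passed depended on the setting. In the list for fatty acid uptake and oxidation 4 of 48 tested genes fell (8.33% against 0.414% of all tested genes) and 0 rose. Of the 48, 40 were negative, and the median was -0.43. Both TAC libraries lay below both sham libraries in 35 (against 23.1% of all tested genes). After the GC correction 24 were called lower, and with the filter within the 4 SFA libraries 23. Ech1 and Eci1, isomerases that prepare unsaturated fatty acids for oxidation, were at 7986 and 8695 in sham and 4558 and 3856 in TAC and at 1384 and 1347 in sham and 847 and 753 in TAC. Acaa2, the thiolase of the last step, was at 5295 and 5398 in sham and 2873 and 2668 in TAC. Acot1, a cytosolic thioesterase with near-identical relatives, so that its value is uncertain, was at 53.0 and 39.4 in sham and 7.60 and 8.75 in TAC. Decr1 and Hadha, further oxidation enzymes, were at 2661 and 2764 in sham and 1954 and 1652 in TAC and at 8025 and 8430.5 in sham and 5455 and 5517 in TAC (adjusted p = 0.0503 and 0.0558). In lipid storage Ces1d, a triglyceride hydrolase, fell 5.15-fold from 687 and 602 to 155 and 99.2 (adjusted p = 0.00228), and Fitm2, which shapes lipid droplets, fell from 1438 and 1339 to 892 and 787.

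Respiratory chain genes had small, even differences. All 36 tested nuclear genes of complex I were negative, with a median of -0.43. Both TAC libraries lay below both sham libraries in each of the 36 (against 23.1% of all tested genes). Limma called 0 of them, with 23 at an unadjusted p under 0.05, 15 called lower after the GC correction and 21 with the filter within the 4 SFA libraries. Ndufa5 had the smallest p of them, at 2105 and 2296 in sham and 1537 and 1219.7 in TAC (adjusted p = 0.0759). All 41 genes of complexes III and IV and ATP synthase were negative too (median -0.45), and 1 fell (2.44% against 0.414% of all tested genes). It was Cox7a1, the muscle isoform of a complex IV subunit, at 3347 and 3392 in sham and 2118 and 1871 in TAC (log2 difference -0.76, adjusted p = 0.0478). In that list 19 were lower after the GC correction, 25 with the filter within the 4 SFA libraries and 0 after quantile normalization. Among 37 pyruvate and tricarboxylic acid cycle genes 32 were negative (median -0.35) and 1 fell (2.7% against 0.414% of all tested genes). This gene, Suclg1, a subunit of succinyl-CoA ligase, moved from 2311 and 2199.5 to 1550.3 and 1521. After the GC correction 15 of the 37 were called lower, and with the filter within the 4 SFA libraries 11. Over the 186 genes of these lists with fatty acid oxidation and amino acid catabolism, 171 were negative (against 7845 of 16432 tested genes). Of the 186, 7 fell (3.76% against 0.414% of all tested genes). TAC replicate 2 was above TAC replicate 1 in 53 of them. In the 30 collagen chains it was above in 27. Transcripts of the mitochondrial genome were also lowest in TAC replicate 2, at 22.1% of the value, and the part of that share in these differences was not tested. Over the 11402 genes of mean value 10 or more, log2 fold change had a rank correlation of -0.007 with GC content and 0.161 with gene length. The latter was 0.162 after the GC correction, and the part of gene length in these differences was not tested.

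Branched-chain amino acid catabolism, which breaks down leucine, isoleucine and valine, had 22 of 24 genes negative and a median of -0.38. Limma called 1 of the 24 (4.17%), and it fell (against 0.414% of all tested genes). It was Ppm1k, the phosphatase that switches on the branched-chain keto acid dehydrogenase, at 447 and 532 in sham and 290.3 and 297 in TAC (log2 difference -0.73, adjusted p = 0.045). The list had 10 lower calls after the GC correction, 9 with the filter within the 4 SFA libraries and 0 after quantile normalization. Hsd17b10, a dehydrogenase of isoleucine breakdown, was at 655 and 694 in sham and 482 and 434 in TAC (adjusted p = 0.0575). Enzymes of other amino acids also fell outside the lists: Gpt2, the mitochondrial alanine aminotransferase, Kyat3, a kynurenine aminotransferase, and Aldh4a1 of proline breakdown had log2 fold changes of -0.82, -0.87 and -0.63.

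**Figure D5:**
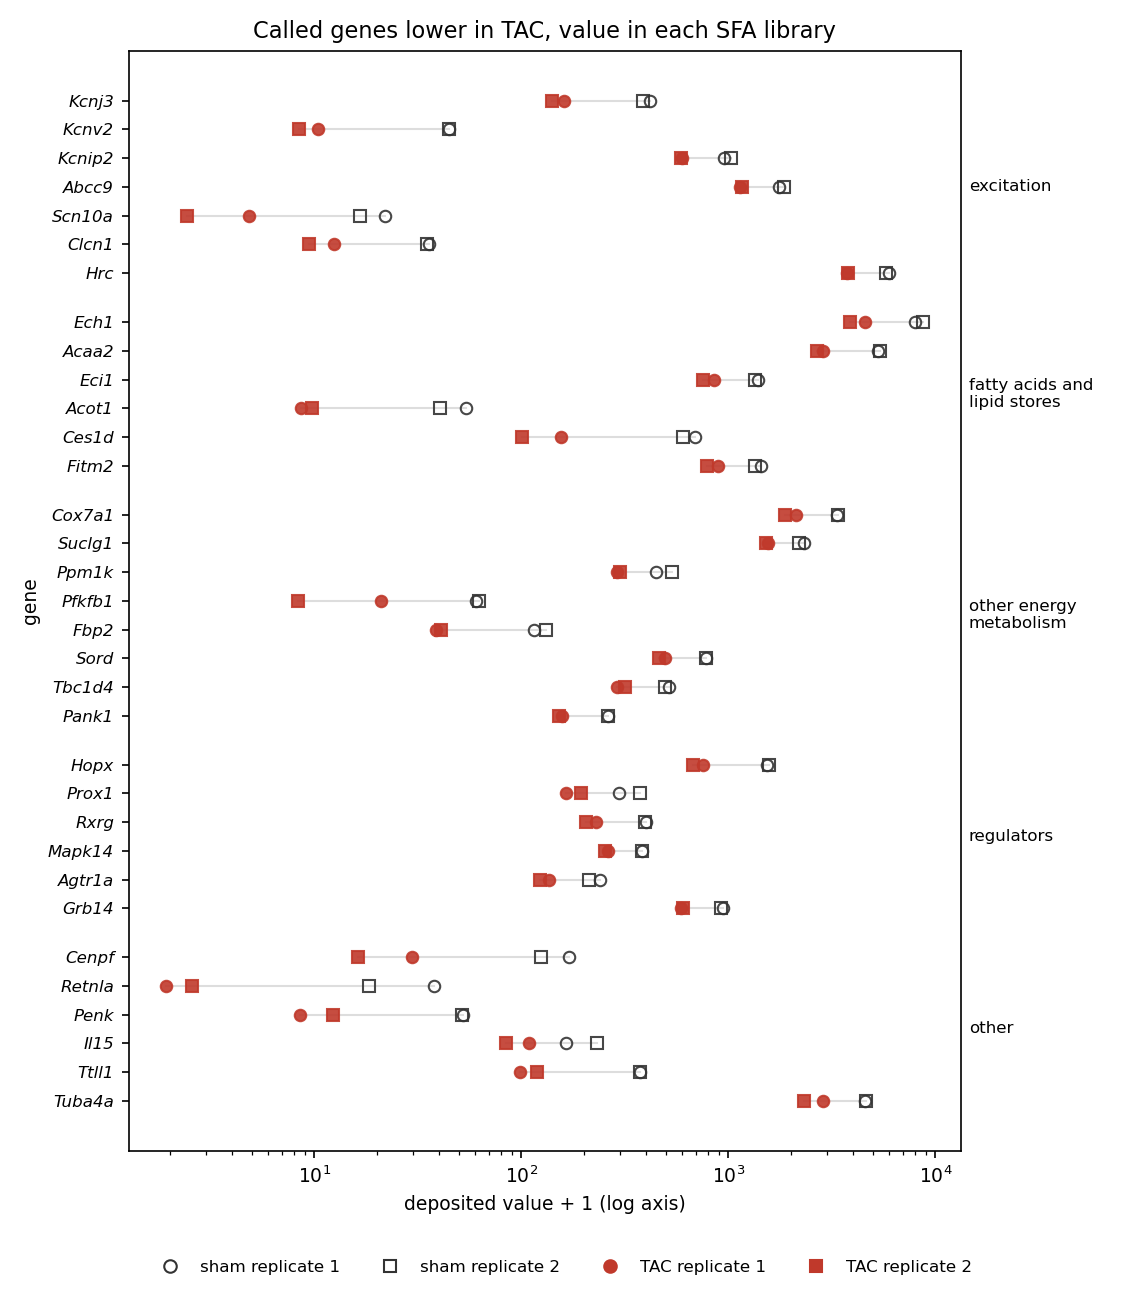
Deposited value plus 1 in each SFA library (horizontal log axis) for 33 genes called lower in TAC (vertical axis), grouped by role. Open symbols are sham and red symbols TAC, circles replicate 1 and squares replicate 2; the sham symbols lie to the right of the TAC symbols in each gene.

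Glucose genes had called members in both directions and a median of -0.02 over 47, 0.03 after quantile normalization. Pfkp, the platelet-type phosphofructokinase, rose from 266 and 224 to 503 and 600.5, while the muscle-type gene Pfkm was at 6076 and 6232 in sham and 4491 and 5479 in TAC (adjusted p = 0.481). Per base of length Pfkp made up 1.36% and 1.12% of that pair in sham and 3.40% and 3.33% in TAC. Pfkfb1, which sets the level of the activator fructose 2,6-bisphosphate, was at 59.4 and 61.5 in sham and 20.1 and 7.32 in TAC and fell, as did Sord, sorbitol dehydrogenase, from 779.6 and 778 to 491 and 461. Of the glucose transporters, the fetal form Slc2a1 was at 74.6 and 91.8 in sham and 94.8 and 131 in TAC and the insulin-regulated Slc2a4 at 2356 and 2646 in sham and 1718 and 1657 in TAC (adjusted p = 0.529 and 0.0868). Per length, Slc2a1 was 3.05% and 3.33% of the pair in sham and 5.19% and 7.25% in TAC. Outside the list Fbp2, the muscle fructose bisphosphatase, was at 114 and 130.4 in sham and 37.9 and 39.9 in TAC and fell. Tbc1d4, which controls the traffic of the insulin-regulated transporter, and Grb14, an adaptor that damps the insulin receptor, fell from 514 and 491 to 287 and 315 and from 946 and 923 to 587 and 600.0.

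Cofactor and ketone genes gave further calls. Nmrk2, the muscle kinase that makes NAD from nicotinamide riboside, was at 9.97 and 13.6 in sham and 66.0 and 230.3 in TAC, with TAC replicate 2 more than 3 times TAC replicate 1. Pank1, which starts coenzyme A synthesis, was at 262 and 261 in sham and 156 and 151 in TAC. Bdh1, which oxidises the ketone body hydroxybutyrate, was at 724 and 649.9 in sham and 1477 and 1293 in TAC and was the only called gene of 8 for ketone use. Uck2, a kinase that recovers pyrimidine nucleosides, was at 216 and 192 in sham and 621 and 569.8 in TAC (adjusted p = 0.00228). It was the only called gene of 16 in the creatine kinase and phosphate transfer list, though it has no part in creatine metabolism. Star, which brings cholesterol into mitochondria, was at 1.64 and 1.79 in sham and 41.8 and 61.5 in TAC and was the only called gene of 42 in the list of steroid, cholesterol and lipid synthesis (median 0.00).

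Transcriptional and hormonal regulators changed in both directions. Hopx, a small homeodomain protein that dampens serum response factor, fell from 1532 and 1576 to 754 and 675 (adjusted p = 0.008). Prox1 and Rxrg, a homeodomain factor and a retinoid receptor, fell from 297 and 373 to 163 and 194 and from 400.1 and 394 to 229 and 204, and the stress kinase gene Mapk14 from 384 and 379.8 to 260.0 and 253. Zbtb16, a zinc finger repressor, and Fkbp5, a cochaperone of the glucocorticoid receptor, both glucocorticoid-responsive in many tissues, rose from 106 and 67.1 to 383 and 368 and from 165 and 108 to 635 and 324. Dio2, the deiodinase that activates thyroid hormone, was at 10.4 and 9.16 in sham and 73.0 and 102 in TAC. None of 29 immediate early genes and none of 22 clock genes was called by limma (medians 0.22 and -0.06), with 8 and 1 at an unadjusted p under 0.05. The immediate early median was 0.51 without TAC replicate 1 and 0.05 without TAC replicate 2, and the clock median -0.21 without TAC replicate 2. Across the 90 tested genes of the 3 transcription lists, 2 rose and 1 fell (2.22% and 1.11%, against 0.834% and 0.414% of all tested genes).

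Immune genes were called in both directions. Of 78 tested genes of the cytokine and complement lists 2 rose and 1 fell. These are 2.56% and 1.28%, against 0.834% and 0.414% of all tested genes. Limma called none of 24 macrophage markers higher, though 10 had an unadjusted p under 0.05. Of the 24, 18 were positive, with a median of 0.55 (0.31 without sham replicate 2). Both TAC libraries lay above both sham libraries in 16 and below in 2 (against 24.3% and 23.1% of all tested genes). With the filter within the 4 SFA libraries 2 were called higher. Retnla, a secreted protein of alternatively activated macrophages, was at 37.0 and 17.3 in sham and 0.932 and 1.55 in TAC and fell (adjusted p = 0.0168). The defining markers Csf1r and C1qb were at 208 and 167 in sham and 276 and 243 in TAC and at 234 and 192 in sham and 348 and 315 in TAC without a call (adjusted p = 0.282 and 0.0853). Among 46 cytokine genes 1 rose and 1 fell, the latter being Il15, a cytokine for lymphocytes and muscle, at 164 and 232 in sham and 107 and 83.4 in TAC. The chemokine Ccl11 was at 11.2 and 13.9 in sham and 3.86 and 0.691 in TAC (adjusted p = 0.0982). Serpina3n, an acute phase inhibitor, rose from 64.6 and 70.8 to 239 and 277, alone among 32 complement and acute phase genes (median 0.51). Lymphocyte, neutrophil and mast cell markers summed to 119 and 82.1 in sham and to 126 and 102 in TAC, with 0 of 20 called by limma and 0 at an unadjusted p under 0.05.

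Stress and growth genes completed the lists. Of 179 tested genes of the stress lists 3 rose and 1 fell. These are 1.68% and 0.559%, against 0.834% and 0.414% of all tested genes. Limma called 0 of 29 genes of the integrated stress response and serine-glycine synthesis and 0 of 27 amino acid transporters, with 8 and 9 at an unadjusted p under 0.05. Nox4, an oxidase that makes hydrogen peroxide, was at 3.24 and 4.50 in sham and 27.4 and 64.5 in TAC and rose, and Gstk1, a mitochondrial glutathione transferase, fell from 481 and 462 to 274 and 227. Ctsk, a collagen-degrading cathepsin, rose from 13.5 and 19.2 to 54.0 and 88.1, and Hspa1l, a heat shock gene with near-identical relatives, from 55.2 and 27.1 to 112 and 144. Of 46 cell cycle genes 36 were positive with a median of 0.46, and 2 were called (4.35% against 1.25% of all tested genes). These 2 went in opposite directions: Ccnd2, a cyclin of the G1 phase, from 749 and 761 to 1099.6 and 1315, and Cenpf, a kinetochore protein, from 169 and 124 to 28.6 and 15.2. That median was 0.13 without sham replicate 2, 0.19 without TAC replicate 1, 0.75 without sham replicate 1 and 0.96 without TAC replicate 2.

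Of the 205 called genes 109, 69 higher and 40 lower, belonged to none of the 59 lists. Among the higher ones Nlrc3, a negative regulator of innate signalling, was at 8.38 and 9.06 in sham and 80.7 and 83.1 in TAC. Lrp8, a receptor for apolipoprotein E and reelin, was at 5.26 and 3.66 in sham and 39.9 and 45.0 in TAC, and Tbx15, a T-box factor, at 0.600 and 3.57 in sham and 23.7 and 20.7 in TAC. Bcl2, which blocks apoptosis, was at 52.3 and 58.7 in sham and 143 and 157 in TAC, and Clic5, a chloride channel-like protein, at 1386 and 1434 in sham and 3238 and 3079 in TAC. Among the lower ones Sema5b, a semaphorin, had values of 7.72 and 10.2 under sham, while each TAC library lists it at 0. Plxnb1, a semaphorin receptor, and Epha4, an ephrin receptor, fell from 239.8 and 268 to 114 and 86.1 and from 305 and 275 to 149 and 129. Gpr22, an orphan receptor of the myocyte, fell from 261 and 191 to 83.5 and 106, Rbfox1, a splicing factor of muscle and neurons, from 175 and 165 to 80.7 and 70.9, and Car14, a membrane carbonic anhydrase, from 802 and 791 to 489.6 and 447.

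The same operation under SFA-EAA was compared through the test of the difference between diets, which uses a separate pair of sham libraries. Limma called 0 of 16432 differences (0%), with 902 at an unadjusted p under 0.05 and a smallest adjusted p of 0.306. The libraries differed in their trend with GC content. Its rank correlation was 0.32 to 0.49 in the SFA libraries, -0.58 and -0.40 in sham SFA-EAA and 0.40 and -0.70 in TAC SFA-EAA. After the GC correction limma again called 0 differences, with 1321 at an unadjusted p under 0.05. The part of these trends in the diet comparison was not tested further. Under SFA-EAA 129 of the 137 higher genes were also positive, with a median of 0.75 on the log2 scale, and 62 of the 68 lower genes were also negative, with a median of -0.41. Since these genes were chosen on the SFA libraries, larger changes there are partly a matter of that choice. Of the 205, Nppb and Tnfrsf12a were called under SFA-EAA as well, its only 2 calls. The smallest adjusted p belonged to Zbtb16, with log2 fold changes of 2.14 under SFA and -0.87 under SFA-EAA. Hopx, at -1.12 and 0.05, and Fkbp5, at 1.76 and -0.55, were among the 14 called genes of opposite sign on the 2 diets, and neither difference passed (adjusted p = 0.698 and 0.75).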

How the data were processed

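Left ventricular RNA was sequenced in 8 libraries, 2 per group of diet and operation; the groups and replicate numbers are those of the labels. The deposited values are a signal per gene that the authors deposited as edgeR normalized counts. STAR 2.5, edgeR and the build GRCm38 are named, per the submitters' processing notes, which give them no role. How reads were counted, with which annotation and strand setting, is not given in the sources used here. Gene length in bases is a deposited column as well. Between 51.5% and 99.8% of low values per library came out as whole multiples of 1 read within 0.1, so the values were not turned back into counts; the read depth is unknown, and no counting interval is given. Per-sample columns with no sample numbered 0.

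Genes that reached a value of 1 in 2 or more libraries were tested on log2(value + 1) with limma 3.58.1 (R 4.3.3), with a mean-variance trend, 1 mean per group and 1 spread per gene shared by the 4 groups, two-sided, and Benjamini-Hochberg adjustment over all 16432 genes. Called means an adjusted p under 0.05. The fit was tested on simulated data of 16269 genes. Of 50 genes each changed 1.5-fold, 2-fold, 4-fold and 8-fold it called 2, 14, 48 and 49, with 0 false calls in those data. The share of false calls in the deposited libraries was not tested.

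The members and the 59 gene lists were chosen with earlier results of these data known. Of 1624 listed genes 1533 were tested. The rule for naming genes took the 25 largest rises and 25 largest falls among calls whose mean value reached 5, every called list member with up to 4 further members by p-value, the 10 largest changes of value in each direction, and a fixed panel. Outside that rule, and chosen after their values were seen, are Abra, Aldh4a1, Bcl2, Car14, Clic5, Clip1, Cnksr1, Dbn1, Dhrs7c, Dync1li1, Epha4, Fkbp5, Gpt2, Grb14, Kyat3, Mapk14, Mical2, Mrc2, Myl12a, Pank1, Sorbs2, Sulf1, Svep1, Synpo, Tbc1d4, Tgm2, Comp, Csf1r, Dkk3, Gdf15, Gm13054, Myl4, Myl7, Pfkm and Upk3b. A few called genes are not reported here. Alternatives changed the pseudocount, the filter, the scaling, GC content, the replicate block and the libraries. Upstream sequences come from a RefSeq table for GRCm38.p6.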

Additional observations from a re-analysis of the deposited data

How the results depend on the processing

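With 2 libraries a group, the number of calls moved with most choices, while all 205 called genes kept their direction wherever they were tested. The 137 higher and 68 lower calls became 189 and 121 with a mean of at least 10, and 398 and 461 with the GC correction. A fit to the 4 SFA libraries alone gave 0 and 0 (2921 genes at an unadjusted p under 0.05). With the filter applied within these 4, an alternative chosen after seeing the data, it gave 417 and 406 of 14685 genes. Without any filter 116 and 81 genes were called, and 78 of the 205 remained. A pseudocount of 0.25, quantile normalization and median-of-ratios scaling gave 102 to 134 higher and 48 to 79 lower genes.

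Leaving out 1 library at a time gave 0 to 199 higher and 0 to 186 lower calls, the lowest without sham SFA replicate 2 and the highest without TAC SFA-EAA replicate 1. With a mean of at least 10, also chosen after seeing the data, the calls were 54 and 6 without sham replicate 1, 27 and 4 without sham replicate 2, 122 and 55 without TAC replicate 1, and 29 and 8 without TAC replicate 2. The difference between diets had 0 calls in limma under each alternative that could test it.

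Sham and TAC SFA libraries share only replicate numbers. The deviations of same-numbered libraries correlated at -0.159, and the replicate block gave 76 higher and 20 lower calls. Crossing the numbers in TAC SFA, added after seeing the data, gave 122 and 47.

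Among named genes that did not pass, some changed sign. Left-out libraries moved the log2 fold change of Myl7 between -3.56 and 1.09, that of Myl4 between -2.68 and 1.77, Dkk3 between -0.47 and 2.40, Upk3b between -0.27 and 3.05 and Actc1 between -0.0563 and 0.14. The opposite sign came without sham replicate 1 (Myl7 0.81, Myl4 1.32), without TAC replicate 1 (Myl7 1.09, Myl4 1.77), without sham replicate 2 (Dkk3 -0.34, Actc1 -0.0277) or without TAC replicate 2 (Dkk3 -0.47, Upk3b -0.27, Actc1 -0.0563). Quantile normalization put Myh6 at 0. The cause was not tested in any of these.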

Other observations

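The largest log2 fold change of any tested gene, 5.16, belonged to Alb, serum albumin, a liver gene. Alb was at 0 and 0.227 in sham and at 19.7 and 74.6 in TAC and did not pass in limma (adjusted p = 0.0742). In TAC SFA-EAA replicate 1 it was at 277.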
